A study of Mus musculus with 19 samples.

Results

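Bulk RNA sequencing values of 9 myosin heavy chain genes, Myh1, Myh2, Myh3, Myh4, Myh7, Myh8, Myh9, Myh10 and Myh11, were examined in primary mouse sarcomas. The genes were chosen by symbol, and all 9 were found among the 48795 genes with values. They comprise 3 adult fast skeletal muscle myosins, 1 slow myosin, 2 developmental myosins, 1 smooth muscle myosin and 2 nonmuscle myosins.

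The samples were 19 primary p53/MCA sarcomas, each from a gastrocnemius muscle in which Trp53 was targeted by an adenovirus with Cas9 and a Trp53 guide (Adeno-sgp53-Cas9), before injection of 300 µg of the carcinogen 3-methylcholanthrene (MCA). Of these, 11 tumors (S41 to S51) were from Rag2-/- mice, which cannot rearrange antigen receptor genes and so make no mature T or B cells, and 8 (S52 to S56 and S58 to S60) were from Rag2+/- mice. All mice were 6 to 10 weeks old when tumors were started, and none was treated before the tumors were collected at 70 to 150 mm3. The question behind the comparison is how tumors differ when they form with and without adaptive immunity. The virus was given into muscle, so muscle fibers can be part of a tumor specimen, and the labels give neither the sex of each mouse nor the muscle content of each specimen. Each value is a level on the scale log2(upper-quartile normalized FPKM + 0.1), so that a value of −3.32 means 0 and 1 unit is a doubling of levels well above 0.1.

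The labels were checked against lymphocyte genes. Cd3e, a chain of the T cell receptor complex, was at −3.32 in all 11 Rag2-/- tumors and between −0.61 and 2.90 in Rag2+/- tumors. Rag2 itself was low in both groups, from −2.05 to 0.36 in Rag2-/- and from −2.33 to −0.57 in Rag2+/- tumors, and its row does not show whether the deleted part was read. Depth estimated from the low values was 24.9 to 33.7 M fragments on genes in 18 tumors and 5.23 M in S41. Xist was above 0 on the log2 scale in 7 of the 11 Rag2-/- and 3 of the 8 Rag2+/- tumors.

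Myosin heavy chains are the motor subunits of the myosin II filaments that pull on actin. Each skeletal muscle fiber is built mainly from one adult form, and the form sets its type: Myh4 marks the fastest, glycolytic 2B fibers, Myh1 the 2X fibers, Myh2 the more oxidative 2A fibers and Myh7 the slow type 1 fibers and the heart, while Myh3 (embryonic) and Myh8 (perinatal) are made by developing and regenerating fibers. Myh11 is the contractile myosin of smooth muscle, and Myh9 (nonmuscle IIA) and Myh10 (nonmuscle IIB) drive the shape, adhesion and migration of cells of most other types, tumor cells and fibroblasts included. Mouse gastrocnemius is mostly a fast muscle.

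Of the 6 skeletal genes, 5 lie side by side on the plus strand of chromosome 11 (GRCm38). In order these are Myh3 (ENSMUSG00000020908, chr11:67078300-67102291), Myh2 (ENSMUSG00000033196, chr11:67171027-67197517), Myh1 (ENSMUSG00000056328, chr11:67200052-67224575), Myh4 (ENSMUSG00000057003, chr11:67238029-67260446) and Myh8 (ENSMUSG00000055775, chr11:67277124-67308634). Myh10 (ENSMUSG00000020900, chr11:68691559-68816632) is on the same strand further along, and it ends 0.764 Mb before Trp53, the gene that the guide was made to cut. The other 3 are on the minus strands of their chromosomes: Myh7 (ENSMUSG00000053093, chr14:54970684-54994626), Myh9 (ENSMUSG00000022443, chr15:77760587-77842175) and Myh11 (ENSMUSG00000018830, chr16:14194535-14291372).

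The promoters of the chromosome 11 genes are shown because the genes are neighbors whose levels went together across tumors. RefSeq promoters (GRCm38.p6), cut to the 250 bases before the start, were found for 8 of the 9 genes, all but Myh11. The promoters of Myh4, Myh1, Myh2 and Myh8 shared a run of 14 identical bases, TTCTAATTATATCC, which began 158, 160, 125 and 54 bases before the start. The run was picked out from these 4 promoters, so that its presence in them is a description. A search of both strands of all 32536 promoters of the same length found it in these 4 and in no other. The promoters of Myh4, Myh1 and Myh8 also held a site for MEF2, a factor of muscle genes, upstream of the run, and 2.89% of all promoters held such a site. In all 3 genes the site had the same letters, TTATTTATAG, which contain TATAAA on the other strand. The letters TATAAA, the TATA box, were present on either strand in 12.3% of all promoters, and lay 31 bases before the start in Myh4, 32 in Myh1 and 29 in Myh3. Capitals mark the shared run, the MEF2 site and TATAAA in the 5 promoters below, all 5′ to 3′ on the plus strand. For Myh1 the last 50 bases before the RefSeq start are left out, since they lie in the GENCODE gene, and the RefSeq start of Myh4 is upstream of its GENCODE start.
Myh3 (chr11:67078050-67078299): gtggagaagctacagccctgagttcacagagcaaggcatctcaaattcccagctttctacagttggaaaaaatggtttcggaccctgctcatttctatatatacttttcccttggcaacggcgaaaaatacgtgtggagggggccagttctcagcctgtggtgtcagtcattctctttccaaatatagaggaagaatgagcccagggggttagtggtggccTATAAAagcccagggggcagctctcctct
Myh2 (chr11:67170777-67171026): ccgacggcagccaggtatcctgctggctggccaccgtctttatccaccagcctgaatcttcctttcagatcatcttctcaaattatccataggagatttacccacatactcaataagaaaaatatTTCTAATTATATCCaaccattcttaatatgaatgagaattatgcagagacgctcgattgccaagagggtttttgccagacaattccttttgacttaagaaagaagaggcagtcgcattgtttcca
Myh1 (chr11:67199852-67200051): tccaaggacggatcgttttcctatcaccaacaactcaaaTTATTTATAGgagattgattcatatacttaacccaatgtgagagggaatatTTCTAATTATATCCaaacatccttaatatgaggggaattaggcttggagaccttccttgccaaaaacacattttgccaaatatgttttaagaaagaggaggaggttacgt
Myh4 (chr11:67237562-67237811): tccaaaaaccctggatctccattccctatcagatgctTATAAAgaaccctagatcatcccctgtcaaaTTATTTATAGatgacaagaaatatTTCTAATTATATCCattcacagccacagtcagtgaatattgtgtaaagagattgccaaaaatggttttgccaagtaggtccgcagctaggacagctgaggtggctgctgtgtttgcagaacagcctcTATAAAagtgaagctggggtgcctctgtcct
Myh8 (chr11:67276874-67277123): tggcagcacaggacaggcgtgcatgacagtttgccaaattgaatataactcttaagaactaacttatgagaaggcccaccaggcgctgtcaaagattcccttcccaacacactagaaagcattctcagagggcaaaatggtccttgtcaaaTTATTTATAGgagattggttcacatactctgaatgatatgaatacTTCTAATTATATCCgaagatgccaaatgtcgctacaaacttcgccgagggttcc

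The promoters of the nonmuscle genes were of another composition. The share of G and C was 62.4% in Myh9 and 62.8% in Myh10, against 36% in Myh1, 41.2% in Myh2, 42% in Myh4, 42.4% in Myh8, 49.2% in Myh3 and 52% in Myh7, with a median of 52.4% over all promoters. The letters CANNTG, the E-box bound by the MyoD family, were present in 66.2% of all promoters. Myh4 and Myh10 held 2 E-boxes each, Myh3, Myh7, Myh8 and Myh9 held 1 each, and these letters were not in the windows of Myh1 and Myh2.

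By mean level over the 19 tumors the order was Myh4 at 9.32, Myh9 at 6.68, Myh1 at 6.27, Myh2 at 4.61, Myh10 at 3.90, Myh7 at 2.03, Myh11 at 1.68, Myh3 at −1.18 and Myh8 at −1.29, all on the FPKM scale, which is per length. The order of means was not the same in each genotype: in Rag2-/- tumors Myh10 (4.12) was above Myh2 (3.72) and Myh11 (1.59) above Myh7 (1.10), and in Rag2+/- tumors Myh1 (7.55) was above Myh9 (6.41) and Myh8 (−0.41) above Myh3 (−0.50). Myh4 was the highest of the 9 in 17 tumors, and Myh9 was the highest in the other 2, S43 and S48. Among the muscle forms the order held tumor by tumor: Myh4 was above Myh1 and Myh1 above Myh2 in 19 of 19 tumors, and Myh2 was above Myh7 in 18, all but S41. Neighbors in the order of means were often not separated. Myh9 was above Myh1 in 13 of 19 tumors (paired difference 0.41 ± 2.88, SD), Myh2 above Myh10 in 11 (0.71 ± 2.73), Myh7 above Myh11 in 11 (0.35 ± 2.48) and Myh3 above Myh8 in 10 (0.11 ± 0.85), so within these pairs the difference was smaller than its spread between tumors. The same held for Myh4 over Myh9 (2.64 ± 3.19) and Myh10 over Myh7 (1.87 ± 2.68), while Myh1 over Myh2 (1.66 ± 0.77) and Myh11 over Myh3 (2.86 ± 1.93) exceeded it.

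**Figure D1:**
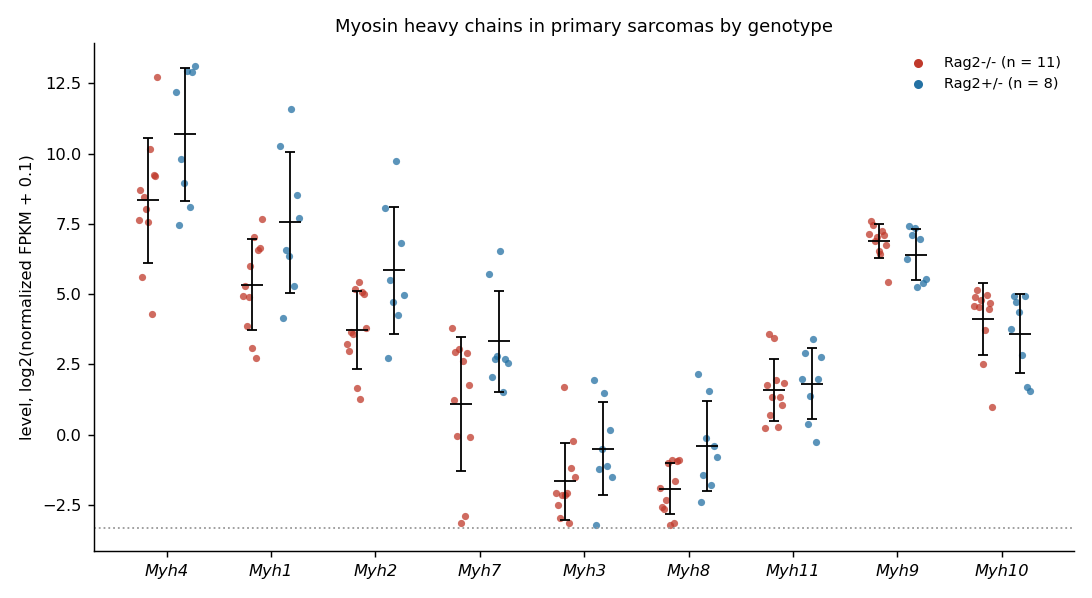
Level of each of the 9 myosin heavy chains on the scale log2(normalized FPKM + 0.1) in the 11 Rag2-/- (red) and 8 Rag2+/- (blue) tumors. Each point is a tumor, bars are the mean and SD, and the dotted line is the value of 0 FPKM. The 6 skeletal genes on the left have lower means in Rag2-/- tumors, and the groups overlap for each of the 9, as they do for all but 0.0156% of the genes tested.

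Among the adult fast myosins, Myh4 had the highest levels and varied over a 461-fold range. In Rag2-/- tumors Myh4 ran from 4.28 (S48) through a median of 8.47 to 12.71 (S51), and in Rag2+/- tumors from 7.46 (S53) through 10.99 to 13.13 (S60). The 5 highest tumors were 4 Rag2+/- tumors (S52, S56, S59 and S60) and 1 Rag2-/- tumor (S51), and between them and the other 14 lay a gap of 2.02, from 10.17 in S47 to 12.19 in S52. Below the gap the other 4 Rag2+/- tumors (7.46 to 9.80) lay within the range of the 10 Rag2-/- tumors (4.28 to 10.17), while S48 and S43 (5.62) were below all Rag2+/- tumors. In S51 Myh4 ranked 14th and in S60 17th among all genes by FPKM, while in S48 it ranked 3851st.

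Myh1 and Myh2 also varied widely, over 469- and 353-fold ranges. Myh1 ran from 2.72 (S48) through 5.28 to 7.66 (S51) in Rag2-/- and from 4.15 (S53) through 7.13 to 11.59 (S56) in Rag2+/- tumors. Myh2 ran from 1.26 (S48) through 3.66 to 5.43 (S47) in Rag2-/- and from 2.71 (S53) through 5.23 to 9.72 (S56) in Rag2+/- tumors. For both genes S48 was the lowest and S56 and S52 were the highest of all 19 tumors, and all but 1 of the 11 Rag2-/- tumors were below the Rag2+/- median.

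Myh7, the slow myosin, went its own way in several tumors. It ran from −3.14 (S46) through 1.76 to 3.78 (S41) in Rag2-/- and from 1.52 (S58) through 2.69 to 6.52 (S56) in Rag2+/- tumors. S46 and S48 were nearly without it, at an estimated 2 and 6 fragments, and S51, whose Myh4 was among the highest, had Myh7 at −0.10. The 4 Rag2-/- tumors S41, S43, S45 and S49 were all above the Rag2+/- median, and S42, S44, S46, S48 and S51 were below all Rag2+/- tumors.

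The developmental myosins were close to the limit of detection. Myh3 ran from −3.16 (S48) through −2.08 to 1.69 (S45) in Rag2-/- and from −3.22 (S53) through −0.81 to 1.92 (S52) in Rag2+/- tumors. Myh8 ran from −3.23 (S46) through −1.89 to −0.91 (S47) in Rag2-/- and from −2.41 (S53) through −0.61 to 2.15 (S52) in Rag2+/- tumors. The lowest of these values stand for an estimated 1 or 2 fragments and the medians over all tumors for 27 fragments of Myh3 and 40 of Myh8, so low values carry a large counting error. S45 stood out for Myh3 alone among Rag2-/- tumors, at an estimated 507 fragments, the most of all 19 tumors.

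Myh11, the smooth muscle myosin, ran from 0.22 (S41) through 1.33 to 3.57 (S43) in Rag2-/- and from −0.28 (S58) through 1.98 to 3.39 (S56) in Rag2+/- tumors. High and low tumors were found in both groups, which shared nearly the same range.

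Myh9 varied least of the 9 genes, over a 5.09-fold range, and Myh10 varied over a 18.0-fold range. Myh9 ran from 5.42 (S51) through 7.05 to 7.60 (S42) in Rag2-/- and from 5.25 (S56) through 6.60 to 7.42 (S53) in Rag2+/- tumors. Myh10 ran from 0.99 (S51) through 4.56 to 5.15 (S43) in Rag2-/- and from 1.56 (S60) through 4.06 to 4.93 (S58) in Rag2+/- tumors. S51, S56, S59 and S60 were the 4 lowest tumors for Myh9, and 3 of these (S51, S59 and S60) were the lowest for Myh10, followed by S46.

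Expressed as shares of the summed FPKM of the 6 skeletal myosins, the makeup was that of fast muscle in all tumors. The sum ran from 28.2 (S48) to 11968 (S56) FPKM. Myh4 was the largest part in 19 of 19 tumors, from 58.6% in S43 to 97.3% in S60, with medians of 81.6% in Rag2-/- and 83.9% in Rag2+/- tumors. Myh1 made up 2.25% (S60) to 25.8% (S56) and Myh2 0.20% (S51) to 14.9% (S43). Myh7 was between 0.0064% (S46) and 9.01% (S43), and S43 and S41, at 5.44%, were the only tumors above 5%. Myh3 and Myh8 together stayed under 1% in all tumors, with the highest share, 0.94%, in S45, where 0.83% was Myh3. The summed skeletal FPKM was 0.154 times that of Myh9 and Myh10 together in S48 and 266 times in S56, with a median of 2.35 in Rag2-/- tumors. The 8 Rag2+/- tumors fell apart into 4 between 1.01 and 6.37 times and 4 between 69.3 and 266 times, and their median of 37.8 lies between these, near no tumor.

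**Figure D2:**
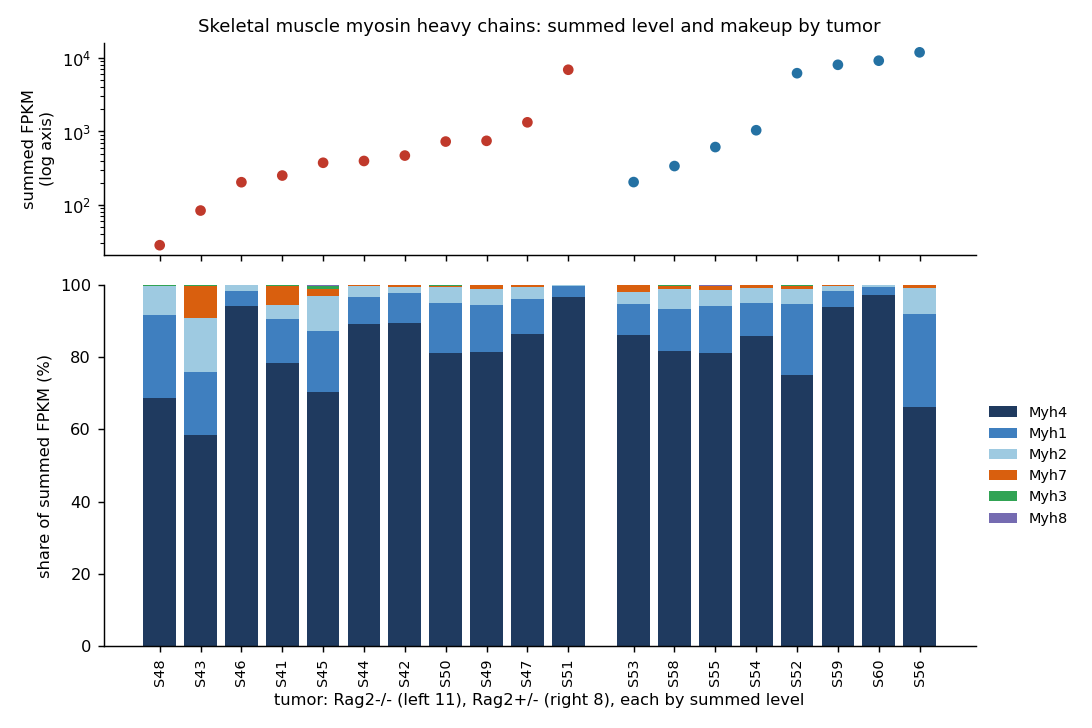
Upper panel, summed FPKM of Myh4, Myh1, Myh2, Myh7, Myh3 and Myh8 in each tumor on a log axis (red Rag2-/-, blue Rag2+/-). Lower panel, share of each gene in that sum in percent. Myh4 is the largest part of every bar, the slow Myh7 is widest in S43 (9.01%) and S41 (5.44%), and Myh3 is visible only in S45 (0.83%).

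The adult fast genes are alike in sequence, and reads could be split between them in part. Longest transcripts of Myh1 and Myh2 were identical at 89.8% of aligned bases, and 12.3% of their aligned 150-base windows, the length of a read, differed by 2 or fewer bases, the number of mismatches allowed in one of the alignments that the methods describe. These shares were 89.2% and 5.99% for Myh1 and Myh4, 87.1% and 2.24% for Myh2 and Myh4, and 86.9% and 3.30% for Myh4 and Myh8. Values of Myh8 in tumors rich in Myh4 are therefore uncertain, such as 0.474 FPKM of Myh8 beside 8961 FPKM of Myh4 in S60. Values of Myh1 and Myh2 are open to the same error where they are a small part beside Myh4. In S60 they were 2.25% and 0.34% of the skeletal sum. Shared reads can also enter the correlations among these genes, which was not tested. Myh3 and Myh4 shared 0% of such windows, Myh9 and Myh10 0.269%, and Myh7 and the cardiac Myh6 17.1%. Myh6 was at or near 0, with a highest value of −0.45 and 10 of 19 tumors at −3.32. Whether reads were counted by strand is not stated, and the antisense RNA Myhas shares 515 of the 6353 exonic bases of Myh1.

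Differences between genotypes were tested in a limma fit of all 12826 genes with a mean log2 level above 0, with Benjamini-Hochberg adjustment, and by a two-sided exact permutation test over all 75582 ways to assign 11 of the 19 tumors to Rag2-/-. None of the 7 myosins in the fit was called at an adjusted p under 0.05, and of all genes 4, or 0.0312%, were called. At an unadjusted p under 0.05, 4 of the 7 were lower in Rag2-/- tumors and 0 were higher, where 9.56% of all genes were lower and 6.74% higher. Without S52 or without S56, the highest Rag2+/- tumors for Myh1 and Myh2, this count of 4 was 1, where 5.49% and 3.35% of all genes were lower. In the 15 tumors that the study plotted it was 1 as well, where 11.1% of all genes were lower. Fewer muscle cells and less myosin RNA in each cell cannot be told apart in bulk tumors.

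Myh4 had a mean of 8.33 ± 2.22 (SD, n = 11) in Rag2-/- and 10.69 ± 2.36 (SD, n = 8) in Rag2+/- tumors, which differ by −2.35, with exact p = 0.0413 and limma adjusted p = 0.301. The tumors above the gap in Myh4, 4 of the 8 Rag2+/- and 1 of the 11 Rag2-/- tumors, enter these means, and below the gap every Rag2+/- tumor was within the Rag2-/- range. Myh1 had means of 5.34 ± 1.63 and 7.55 ± 2.50, a difference of −2.22 (exact p = 0.0306, limma adjusted p = 0.301). Myh2 had means of 3.72 ± 1.40 and 5.84 ± 2.25, a difference of −2.13 (exact p = 0.0189, limma adjusted p = 0.301). On the log2(FPKM + 0.1) scale these are 5.11-, 4.65- and 4.36-fold higher mean levels in Rag2+/- tumors, and none passed the adjustment over all genes. In the 15 plotted tumors the differences were −2.39, −1.60 and −1.27.

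Myh7 had means of 1.10 ± 2.39 (SD, n = 11) and 3.31 ± 1.79 (SD, n = 8), which differ by −2.22 (exact p = 0.0414, limma adjusted p = 0.301), and by −1.42 in the 15 plotted tumors. Myh8 and Myh3 were below the level tested in the fit. For Myh8 the means were −1.93 ± 0.91 and −0.41 ± 1.59, a difference of −1.52 (exact permutation p = 0.0144), and for Myh3 −1.67 ± 1.38 and −0.50 ± 1.67, a difference of −1.17 (exact permutation p = 0.114). Both differences depend on the value added before the log, and they were −0.64 and −0.47 with 1 added and −2.15 and −1.47 with 0.01 added. In a fit with no filter on low levels their limma adjusted p were 0.838 and 0.943. The exact p of Myh4 was above 0.05 in 12 of 24 alternatives, that of Myh7 in 10, that of Myh1 in 6, that of Myh2 in 2 and that of Myh8 in 1, the 15 plotted tumors among them, with p = 0.0549 for Myh4, 0.159 for Myh7, 0.106 for Myh1, 0.148 for Myh2 and 0.0645 for Myh8.

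Myh9 and Myh10 had higher means in Rag2-/- tumors, by less than the spread between tumors. The means of Myh9 were 6.88 ± 0.60 (SD, n = 11) and 6.41 ± 0.91 (SD, n = 8), which differ by 0.47 (exact p = 0.191, limma adjusted p = 0.414). Those of Myh10 were 4.12 ± 1.27 and 3.60 ± 1.40, a difference of 0.52 (exact p = 0.413, limma adjusted p = 0.588). The difference in Myh10 was 0.95 in the 15 plotted tumors (exact permutation p = 0.112), 0.83 without S51, 0.25 without S59 and 0.23 without S60, and that in Myh9 was 0.30 without S56. Myh11 had means of 1.59 ± 1.11 and 1.81 ± 1.27 and a difference of −0.23 (exact p = 0.681, limma adjusted p = 0.798). With single tumors left out this value ran from −0.52 without S58 to −1.43e-05 without S56.

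Ratios of 2 myosins were taken within each tumor from the values with 0.1 added. Myh10 relative to Myh9 was −2.76 ± 0.76 (log2, SD, n = 11) in Rag2-/- and −2.81 ± 0.69 (n = 8) in Rag2+/- tumors, and the means differed by 0.051 (two-sided exact permutation p = 0.890), and by 0.45 in the 15 plotted tumors (exact permutation p = 0.127). The lowest ratios were those of S51 at −4.43, S46 at −4.04, S60 at −3.98 and S59 at −3.70, and the highest was −2.02 in S58. Myh3 relative to Myh4 was −10.0 ± 2.17 (n = 11) and −11.2 ± 1.78 (n = 8), and the means differed by 1.19 (exact permutation p = 0.225). Since Myh3 was near or below 0.1 FPKM in many tumors, this difference depends on the added value, and it was 0.89 with 0.01 added (exact permutation p = 0.365) and 1.88 with 1 added (exact permutation p = 0.0738). With single tumors left out the difference in Myh3 relative to Myh4 ran from 0.69 to 1.61. For that ratio S45 was the highest at −6.35 and S60 the lowest at −14.6.

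Across the 19 tumors the skeletal myosins went up and down together. All 15 pairs had a positive Pearson r, from 0.49 to 0.94, and 14 passed an adjusted permutation p of 0.05 by Pearson r and 13 by Spearman rho (Benjamini-Hochberg over all 36 pairs of the 9 genes). Myh1 and Myh2 had r = 0.94 and rho = 0.86 (adjusted permutation p = 6e-05 and 9e-05), with r = 0.88 without S52 and S56, 0.83 within Rag2-/- and 0.98 within Rag2+/- tumors. Myh4 and Myh1 had r = 0.89 and rho = 0.95 (adjusted permutation p = 6e-05 and 9e-05), with r = 0.91 without the 2 tumors farthest from the median, 0.88 within Rag2-/- and 0.86 within Rag2+/- tumors. The weakest pair was Myh4 and Myh7, with r = 0.49 and rho = 0.26 (adjusted permutation p = 0.0514 and 0.365), 0.22 within Rag2-/- and 0.60 within Rag2+/- tumors. The raw p of 1e-05 behind the smallest adjusted values is the smallest that 100000 permutations can give. Within the 14 tumors below the gap in Myh4, r among the skeletal genes was 0.37 to 0.94, and 12 of the 15 pairs passed by Pearson r and 9 by Spearman rho.

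**Figure D3:**
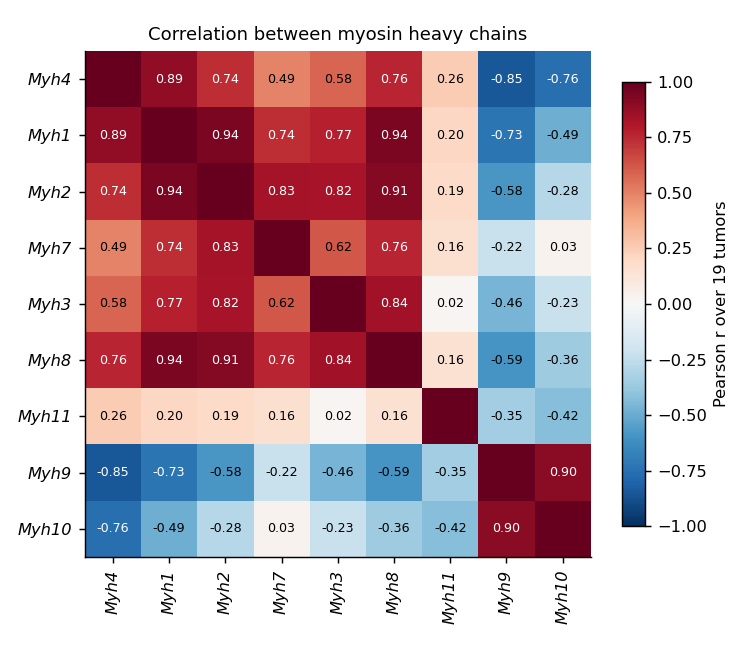
Pearson r between the levels of the 9 myosin heavy chains over 19 tumors, from −1 (blue) to 1 (red). The 6 skeletal genes form a red block (0.49 to 0.94), Myh9 and Myh10 form another (0.90), and Myh11 is pale against all others (−0.42 to 0.26).

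Myh9 and Myh10 also went together, with r = 0.90 and rho = 0.81 (adjusted permutation p = 6e-05 and 0.00027), 0.92 within Rag2-/- and 0.91 within Rag2+/- tumors. Within the 14 tumors below the gap in Myh4 this was r = 0.70 (adjusted permutation p = 0.0136) and rho = 0.59 (adjusted permutation p = 0.106). Against the skeletal myosins r was negative in 11 of 12 pairs over all 19 tumors, with Myh7 and Myh10 the exception (r = 0.033). Myh4 and Myh9 had r = −0.85 and rho = −0.75 (adjusted permutation p = 0.000103 and 0.00129), −0.86 without the 2 tumors farthest from the median Myh4, −0.75 within Rag2-/- and −0.94 within Rag2+/- tumors. Myh4 and Myh10 had r = −0.76 and rho = −0.76 (adjusted permutation p = 0.00039 and 0.001), −0.73 without those 2 tumors, −0.66 within Rag2-/- and −0.89 within Rag2+/- tumors.

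These values include the 5 tumors above the gap, S51, S52, S56, S59 and S60. Within the other 14 tumors, whose range of Myh4 is narrower because they were chosen by its level, r was −0.40 for Myh4 with Myh9 (adjusted permutation p = 0.335) and −0.25 for Myh4 with Myh10 (adjusted permutation p = 0.549). Of the 12 pairs of a skeletal with a nonmuscle myosin, 5 passed by Pearson r and 8 by Spearman rho over 19 tumors, and 0 of 12 passed by either within the 14, which are also fewer. Both measures of a pair come from the same normalized library. Myh11 passed with 0 of the other 8 genes, with r from −0.42 to 0.26.

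**Figure D4:**
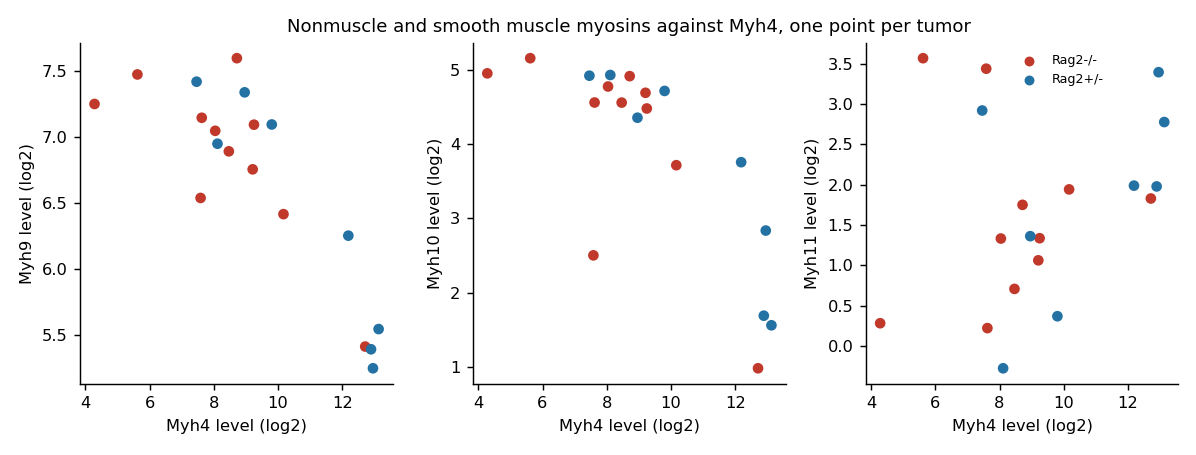
Level of Myh9, Myh10 and Myh11 against the level of Myh4 in the same tumor, all log2(normalized FPKM + 0.1), with 1 point per tumor (red Rag2-/-, blue Rag2+/-). The 5 tumors with Myh4 above 12 have the lowest Myh9 levels, Myh10 is also low in S46 (2.50), and Myh11 scatters (r = 0.26).

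Myh4 went with the rest of the fast fiber. It correlated with the mean of 9 fast fiber genes (r = 0.99, rho = 0.99, adjusted permutation p = 5.33e-05 and 8e-05, over 144 relations of a myosin with a list or gene) and with that of 7 slow fiber genes at lower values (r = 0.60, rho = 0.56, adjusted permutation p = 0.0146 and 0.0278). For Myh7 the order was the other way, and the difference between these correlations was not tested. It had r = 0.96 and rho = 0.88 with the slow fiber genes (adjusted permutation p = 5.33e-05 and 8e-05) and r = 0.47 and rho = 0.29 with the fast fiber genes (adjusted permutation p = 0.0701 and 0.321). Without S46 and S48, the 2 tumors farthest from the median Myh7, r with the slow genes was 0.93, and it was 0.97 within Rag2-/- and 0.96 within Rag2+/- tumors. Myh1 went with both, with r = 0.89 and rho = 0.95 for fast fiber genes (adjusted permutation p = 5.33e-05 and 8e-05) and r = 0.85 and rho = 0.72 for slow fiber genes (adjusted permutation p = 5.33e-05 and 0.00251). Myh2 had r = 0.92 and rho = 0.85 for slow fiber genes (adjusted permutation p = 5.33e-05 and 0.000166) and r = 0.75 and rho = 0.80 for fast fiber genes (adjusted permutation p = 0.00102 and 0.000397). Myh3 correlated with the mean of 10 genes of developing and regenerating muscle at r = 0.83 and rho = 0.84 (adjusted permutation p = 9e-05 and 0.00012), and Myh8 at r = 0.88 and rho = 0.90 (adjusted permutation p = 5.33e-05 and 0.00012). The relation was also found in adult forms, and with the same mean r was 0.94 for Myh1 and 0.88 for Myh2 and Myh4, with rho of 0.92, 0.89 and 0.85 (adjusted permutation p = 5.33e-05 for each r and 8e-05, 8e-05 and 0.00012 for rho). For Myh7 r was 0.64 (adjusted permutation p = 0.00663) and rho, at 0.49, did not pass (adjusted permutation p = 0.0691).

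**Figure D5:**
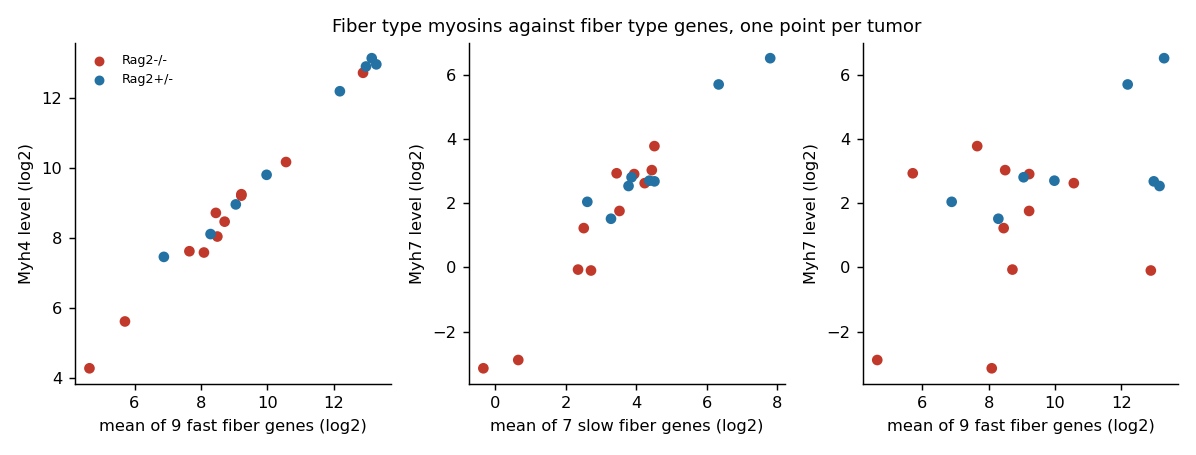
Level of Myh4 against the mean level of 9 fast fiber genes, and level of Myh7 against the mean of 7 slow and of 9 fast fiber genes, all on the log2 scale with 1 point per tumor (red Rag2-/-, blue Rag2+/-). Myh4 follows the fast genes (r = 0.99) and Myh7 the slow genes (r = 0.96), while Myh7 scatters against the fast genes (r = 0.47).

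The genes most like each myosin over the 19 tumors were named by Spearman rho among the 12826 genes tested, as a description. For Myh4 these were Myom1, a protein of the M-band that joins thick filaments (rho = 0.995), Hfe2 (0.991) and Trdn, triadin of the calcium release complex (0.991). For Myh1 they were Mybpc1, a myosin binding protein of thick filaments (0.986), Mb, myoglobin (0.984), and Mlip (0.982). For Myh2 they were Casq2, a calcium store protein (0.900), Mb (0.884) and Tnnt1, slow troponin T (0.884). For Myh7 they were Myl2 (0.921), Tnnc1 (0.916) and Tnni1 (0.830), a light chain and 2 troponin subunits of slow and heart muscle. For Myh3 they were Tnnt2, the troponin T of heart and embryonic muscle (0.891), Csrp3 (0.868) and Myl4, the embryonic light chain (0.860). For Myh8 they were Vgll2, a cofactor of muscle genes (0.940), Myhas, an antisense RNA of the same gene cluster (0.935), and Smtnl1 (0.928).

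The genes given for the other 3 myosins were not muscle fiber genes. Myh9 was most like Pabpc1, a poly(A) binding protein (0.958), Ywhaz, a 14-3-3 protein (0.937), and Scaf11 (0.930). Myh10 was most like Mex3d (0.965), Zfp518b (0.960) and Mex3a (0.958), Mex3d and Mex3a being RNA binding proteins. Among the genes most like Myh11 were Anxa6, an annexin (0.861), and Nacc2 (0.837).

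Other genes of muscle were also lower in mean in Rag2-/- tumors, and none of them was called after adjustment. Of 8 adult skeletal muscle markers, all tested, 7 had an unadjusted limma p under 0.05 and were lower in Rag2-/- tumors. In the same fit of all tumors, 9.56% of all genes were lower in this way. That share of all genes was 3.35% without S56 and 5.49% without S52. The markers were not counted in those 2 fits, so 7 of 8 cannot be set against these shares. The count of myosins lower in this way fell from 4 to 1 in each of them. The median difference of the 8 markers in the fit of all tumors was −2.24, against 0.062 over all genes tested. Among the markers were Acta1, skeletal actin (difference −2.42), Mb (−2.24), Cacna1s, the calcium channel that senses voltage (−2.24), and Ryr1, the calcium release channel (−2.09). Counted in this way, 6 of 9 fast fiber genes (median −2.22), 5 of 7 slow fiber genes (median −1.83) and 6 of 6 genes of thick filament assembly (median −2.03) were lower. In the last group were Smyd1, a methyltransferase needed for thick filaments (−2.42), Myom2 (−2.30), Unc45b, a myosin chaperone (−1.95), and Myom3 (−1.86). Each of these genes had a limma adjusted p of 0.301.

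Of 10 genes of developing and regenerating muscle, 6 were tested and 3 were lower at an unadjusted p under 0.05: Myod1, the muscle determination factor (−2.26), Myl4 (−1.03) and Actc1, cardiac actin (−2.23). The adult skeletal marker mean ran from 2.35 to 9.80 in Rag2-/- and from 4.51 to 10.82 in Rag2+/- tumors, and all 8 markers were above −3.32 in all tumors. Over the 19 tumors this mean had r = 0.99 with Myh4, 0.93 with Myh1, 0.80 with Myh2 and 0.55 with Myh7. A covariate so close to Myh4 and Myh1 leaves little of their difference to see, whatever its cause. With this mean as a covariate in the limma fit, the difference was −0.086 for Myh4, −0.35 for Myh1, −0.79 for Myh2 and −1.28 for Myh7 (adjusted p = 0.999 for each), and 0 of 7 myosins had an unadjusted p under 0.05, where 4.05% of all genes did. Myh9 and Myh10 then differed by −0.16 and −0.46, the opposite sign (adjusted p = 0.999 for both).

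Genes that work with the nonmuscle and smooth muscle myosins were counted in the same way. Of 8 partners of nonmuscle myosin, 1 was higher in Rag2-/- tumors at an unadjusted p under 0.05, the regulatory light chain Myl12b (0.51), and 2 were lower, its close relative Myl12a (−0.40) and the kinase Rock2 (−0.26), with a median of 0.19. The mean of these partners correlated with Myh9 at r = 0.91 and rho = 0.89 (adjusted permutation p = 5.33e-05 and 8e-05). Of 9 smooth muscle genes, 8 were tested and 2 were lower, Smtn (−0.51) and Synpo2 (−1.68), with a median of 0.12, and the mean of the 9 genes was between 1.96 and 3.74 in both groups. Myh11 had r = 0.38 and rho = 0.34 with this mean (adjusted permutation p = 0.157 and 0.229) and with the mean of 6 pericyte genes it passed (r = 0.54, rho = 0.52, adjusted permutation p = 0.0335 and 0.0455). The relation was not particular to Myh11. Myh1, Myh2 and Myh3 also passed with the pericyte mean by r and by rho (r = 0.51, 0.54 and 0.56, adjusted permutation p = 0.0447, 0.0320 and 0.0262). Myh4 and Myh8 passed with it by rho only, and Myh7 by neither. Of the pericyte genes, 1 of 6 was lower in Rag2-/- tumors, Abcc9 (−1.44).

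Markers of fibroblasts, macrophages and endothelial cells had smaller median differences between genotypes than the muscle genes. None of the 6 fibroblast genes had an unadjusted p under 0.05 (median 0.40), 1 of 5 macrophage genes was higher in Rag2-/- tumors, Fcgr1 (0.71), and 1 of 5 endothelial genes was lower, Pecam1 (−0.46). The fibroblast mean ran from 6.08 to 8.27 in Rag2-/- and from 6.48 to 8.82 in Rag2+/- tumors. It correlated with Myh9 at r = 0.85 and rho = 0.68 (adjusted permutation p = 9e-05 and 0.00533) and with Myh10 at r = 0.82 and rho = 0.52 (adjusted permutation p = 0.000295 and 0.0488), and within the 14 tumors below the gap in Myh4 at 0.28 for each. Of 6 T cell genes, 2 were tested and both were lower, and Cd2 was the 1 listed gene called after adjustment (difference −2.47, limma adjusted p = 0.0302). Xist, which was above 0 in more of the Rag2-/- tumors, correlated with Myh4 at r = −0.61 and rho = −0.65 (adjusted permutation p = 0.0165 and 0.00846), and at r = −0.20 within the 14 tumors. Xist also correlated with Myh9 at r = 0.69 and rho = 0.64 (adjusted permutation p = 0.00283 and 0.00998). With Myh10 it had r = 0.64 and rho = 0.59 (adjusted permutation p = 0.00753 and 0.0225). Within the 14 tumors r was 0.42 for Myh9 and 0.34 for Myh10. With Xist as a covariate the limma differences were −1.65 for Myh4, −1.73 for Myh1, −1.84 for Myh2 and −2.32 for Myh7 (adjusted p = 0.617 for each), and 2 of 7 myosins, Myh2 and Myh7, were lower at an unadjusted p under 0.05, where 3.62% of all genes were. In that fit the difference was 0.20 for Myh9, 0.070 for Myh10 and −0.12 for Myh11 (limma adjusted p = 0.789, 0.966 and 0.945). Without the covariate these were 0.47, 0.52 and −0.23. How far muscle content, sex or depth bear on the differences in myosin levels between genotypes was not tested beyond these values.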

How the data were processed

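RNA sequencing of 19 primary sarcomas (150-base paired-end reads) gave 1 table, with 1 column for each tumor and 0 columns left out. Per the study's methods, the authors aligned reads to mouse B38 with the Omicsoft aligner, allowing 2 mismatches, quantified Ensembl R86 gene models, computed FPKM, normalized them to the upper quartile and deposited log2 values. The submitters' processing notes name mm10, Trimmomatic 0.36, STAR and HTSeq, without their roles, and which of these made the table is not settled. Values are not counts, and the lowest, −3.32 in all 19 tumors, is 0.1 on the FPKM scale, so 0.1 was taken off before shares were summed.

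Symbols matched 48349 of the 48795 gene identifiers. Fragments were estimated from low values, 78.3% to 90.8% of which were whole multiples of 1 fragment within 0.05, with GENCODE vM21 lengths on GRCm38. Differences between genotypes came from a limma fit (version 3.58.1, R 4.3.3; intensity trend, mean log2 above 0, Benjamini-Hochberg at 0.05) and by exact permutation in Python 3.11.15 (numpy 2.4.6, pandas 2.3.3, scipy 1.17.1). In a simulation between 11 and 8 tumors, 200 of 12826 genes were changed by 2 or by 4 on the log2 scale. The fit recovered 89.0% of the genes changed by 2 and 98.0% of those changed by 4, and 4.10% of all its calls were false. Noise was drawn for each gene on its own, whereas muscle genes went together across the tumors. The recovery is over genes of all degrees of variation and was not computed for genes as variable as the skeletal myosins. Labels pair no tumors across genotypes. Each title carries a number of its own, and the study counts each plotted tumor as 1 mouse.

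The 9 genes and the 13 lists (90 genes) were chosen with earlier results of these data known. The text names the 9 genes, the 3 genes most like each and, from each list, up to 4 genes with the lowest p, except for 1 gene that is not reported here. Cd3e, Rag2, Trp53, Xist, Myhas, Myh6, Myh7b, Myh13 and Myh15 are named outside that rule, and the shared promoter run was chosen after its letters were seen. Alternatives were the 15 plotted tumors, pseudocounts of 1 and 0.01, filters, normalizations, variance models, covariates and each tumor left out. Scaling to fragments and the 14 tumors below the gap in Myh4 were added after seeing the data.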

Additional observations from a re-analysis of the deposited data

How the results depend on the processing

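The number of genes called between genotypes, 4 of 12826, was 15 in the 15 plotted tumors, 26 with no filter on low levels, 0 with a mean log2 above 2 (where limma gave 1676 at an unadjusted p under 0.05), 2 with the skeletal muscle covariate and 2 when scaled to fragments, and between 3 and 7 when single tumors were left out, the 7 being without S51 or without S56. None of these settings called a myosin: over 216 limma results the lowest adjusted p was 0.0941, and 212 had the direction first given. Of the 4 others, Myh11 was at 0.059 with the muscle covariate and at 0.035 when scaled to fragments (also 0.035 in the exact test), Myh9 at −0.16 and Myh10 at −0.46 with the muscle covariate. Scaling to fragments moved the median difference of all genes from 0.062 to 0.32 and the unadjusted split from 865 higher and 1226 lower to 2173 higher and 602 lower, and with it the 4 adult skeletal myosins stayed lower in Rag2-/- tumors. Myh10 relative to Myh9 went from −0.12 to 0.22 when single tumors were left out, was 0.45 in the 15 plotted tumors, and was below 0 without S50 (−0.018), S59 (−0.076) or S60 (−0.12). The correlation of Myh4 with Myh11 was −0.15 in the 14 tumors below the gap in Myh4. The cause of these changes was not tested.

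Of 216 exact test results, 183 stayed on their side of 0.05. The exact p rose above 0.05 for Myh1 without S46, S48, S52, S56 or S59 (0.0530 to 0.0767), for Myh2 without S56 (0.0509), for Myh4 without S41, S43, S44, S45, S46, S48, S52, S56, S59 or S60 (0.0514 to 0.0860) or with quantile normalization (0.0764), and for Myh7 without S42, S44, S46, S48, S51, S52, S55 or S56 (0.0502 to 0.0979) or scaled to fragments (0.0678). For Myh3 it was 0.0246 without S45 and 0.0326 without S53. The study describes the Rag2-/- and Rag2+/- mice as littermates, but the sample titles give no litter. No paired analysis was possible, since no Rag2-/- tumor shares a number with a Rag2+/- tumor either. S41 had 5.23 M fragments on genes against 24.9 M or more in the others, and Myh3, Myh8 and in S46 and S48 Myh7 rest on few fragments.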

Other observations

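Among myosin heavy chains outside the 9, Myh14, the third nonmuscle form (IIC), followed the muscle genes in these tumors. Its level ran from −3.20 through 0.32 to 4.35 in Rag2-/- and from −1.35 through 2.50 to 4.37 in Rag2+/- tumors, with a difference of −1.84 (limma unadjusted p = 0.0429, adjusted p = 0.305). Across the 19 tumors Myh14 correlated with Myh4 at r = 0.97 and rho = 0.95 (adjusted permutation p = 5.33e-05 and 8e-05), and with Myh9 at r = −0.86 and rho = −0.78 (adjusted permutation p = 5.33e-05 and 0.00068). Without the 2 tumors farthest from the median Myh4, r with Myh4 was 0.96, and it was 0.97 in Rag2-/- and 0.96 in Rag2+/- tumors. Within the 14 tumors below the gap in Myh4, r of Myh14 was 0.92 with Myh4 and −0.46 with Myh9. The other 4 forms were low: Myh7b reached 0.76, Myh13 −0.43, Myh6 −0.45 and Myh15 −2.02 in its highest tumor, and Myh15 was at −3.32 in 15 of 19 tumors.

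Myhas, the antisense RNA that overlaps Myh1, ran from −0.45 through 1.03 to 5.18 in Rag2-/- and from 1.07 through 4.05 to 6.999 in Rag2+/- tumors. It correlated with Myh4 at r = 0.94 and rho = 0.90 and with Myh1 at r = 0.91 and rho = 0.94 (adjusted permutation p of each r = 5.33e-05 and of each rho = 8e-05). Without strand, its reads and those of Myh1 cannot be told apart where they overlap.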
